A study of Mus musculus with 8 samples.

Results

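The genes described here encode receptors that sense microbial and tissue-damage signals, together with their accessory proteins and a shared adaptor: Tlr2, Tlr4, Tlr7, Tlr13, Cd14, Ly96, Myd88, Clec4e, Fpr1 and Fpr2. They were taken by gene symbol, and all 10 were found among the 27998 genes measured by single-cell RNA sequencing of mouse left ventricle. Their levels were followed across 9 classes of cells set by the transcripts of marker genes, none of which is one of the 10, and between a sham and an ischemia-reperfusion (IR) library. In IR the largest levels of Cd14, Clec4e, Tlr2 and Tlr4 lay in neutrophil-like and monocyte-like cells, whereas Ly96, which encodes the partner of TLR4, was at a lower level in IR in all 3 myeloid classes.

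Toll-like receptors are membrane proteins that bind conserved microbial molecules and molecules released by injured cells, and most of them signal through the adaptor MyD88 to NF-kB. TLR2 and TLR4 sit at the cell surface, where CD14 hands ligands to them and MD-2, the product of Ly96, forms the ligand pocket of TLR4, while TLR7 and TLR13 bind RNA in endosomes. Mincle, the product of Clec4e, is a C-type lectin that senses dead cells through SAP130 and signals through the Fc receptor gamma chain, and the formyl peptide receptors FPR1 and FPR2 guide phagocytes toward formylated peptides, which bacteria and mitochondria both release.

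The IR mice underwent ligation of the left anterior descending artery for 30 min followed by reperfusion, and sham mice were operated on without occluding the artery. All were male C57BL/6 mice aged 10 to 12 weeks, and left ventricles were digested 6 h after surgery, with 3 hearts pooled in a sample. The sample records hold 4 samples titled IR0h and 4 titled IR6h, and whether the 0 h of the titles stands for sham hearts taken 6 h after surgery is not settled by them. The 2 matrices each merge the samples of a condition without a map from cell to sample, so each condition is 1 library, the difference between IR and sham has no replicate check, and no p value is given. Intervals are 95% exact intervals that cover counting error only.

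After the study's filter of 200 to 2500 detected genes and at most 30% mitochondrial transcripts, 9777 of 11620 sham barcodes and 4880 of 8539 IR barcodes remained, with medians of 4255 and 3951 unique molecular identifiers (UMIs, each a captured RNA molecule), and the libraries shared 30 barcodes. A cell was placed in the class of which it showed the most markers, at least 3 and at least 2 more than of any other class, and is called macrophage-like, monocyte-like and so on. The macrophage-like class (C1qa, C1qb, Mrc1, Mertk and others) held 2960 sham and 395 IR cells, the monocyte-like class (Ly6c2, Ccr2, Plac8 and others) 204 and 315, and the neutrophil-like class (S100a8, Retnlg, Csf3r, Cxcr2 and others) 272 and 2332. The B-cell-like, T-cell-like, NK-cell-like, fibroblast-like, mural-like and endothelial-like classes ranged from 208 to 2956 cells in sham and from 56 to 537 in IR. Graph clusters named from the same markers gave 98.3% of 13055 classed cells the same name, but sham and IR cells of a class often lay in different clusters: cluster 15 held 174 of the sham cells in neutrophil clusters and cluster 2 held 1416 of the IR cells, and for monocytes these were cluster 9 with 364 and cluster 11 with 348. Macrophage clusters 1 and 3 held 1762 and 1188 sham cells and cluster 10 held 295 IR cells, and fibroblast clusters 0 and 16 held 2962 sham and 148 IR cells. At the least allowed lead of 2 markers lay 187 and 69 macrophage-like, 49 and 65 monocyte-like and 17 and 147 neutrophil-like cells of sham and IR. The upper limit of 2500 genes removed 57.4% of macrophage-like, 72.2% of monocyte-like and 3.12% of neutrophil-like IR cells, against 8.13%, 28.4% and 6.85% in sham, so ratios were also computed without it. A level is the UMIs of a gene summed over the cells of a class, per 1000000 UMIs of that class (CPM).

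**Figure D1:**
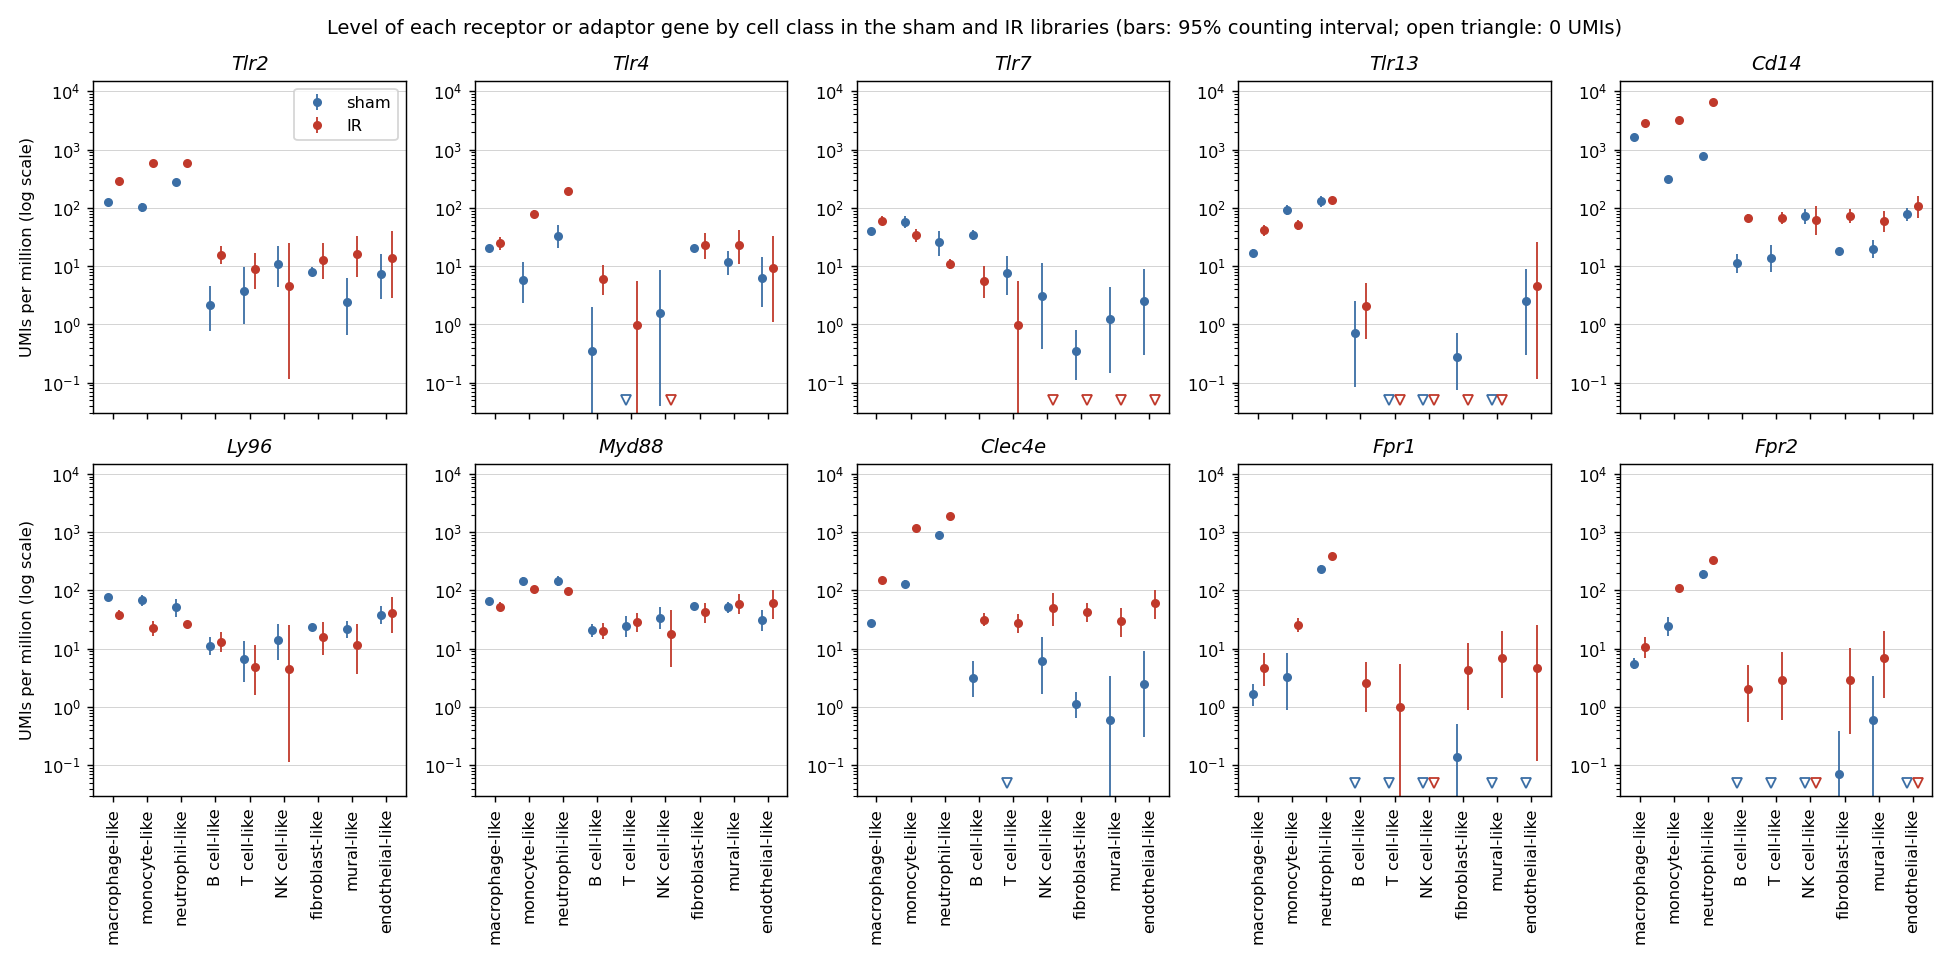
Level of each gene (CPM, log axis) in 9 cell classes, with sham in blue and IR in red; bars are 95% counting intervals and open triangles mark classes with 0 UMIs. Cd14, Clec4e, Tlr2 and Fpr2 stood above all other classes in each of the 3 myeloid classes on the left, as did Fpr1 in neutrophil-like and monocyte-like cells, whereas Myd88 and Ly96 were spread over all classes.

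The comparison of IR with sham asks how the levels of these sensors differed in each class of cells early after reperfusion. A gene was compared when it had at least 20 UMIs over both libraries, and all 10 were compared in the 3 myeloid classes. In monocyte-like cells 6 of 10 were at least 2-fold higher in IR (Tlr2, Tlr4, Cd14, Clec4e, Fpr1 and Fpr2), against 12.8% of all 7571 genes compared, and 1 was at least 2-fold lower (Ly96), against 19.8%. Tlr4 (7 sham and 159 IR UMIs) and Fpr1 (4 and 52) passed the minimum through IR alone, so they are no support for the count. The median given below for this class includes both. In neutrophil-like cells 4 of 10 were at least 2-fold higher (Tlr2, Tlr4, Cd14 and Clec4e), against 9.10% of 8080 genes, and 1 was lower (Tlr7), against 28.9%. In macrophage-like cells 4 of 10 were at least 2-fold higher (Tlr2, Tlr13, Clec4e and Fpr1), against 10.0% of 10806 genes, and 1 was lower (Ly96), against 7.85%. Tlr2 and Clec4e were thus past 2-fold in each of the 3 classes, although in neutrophil-like cells with at most 1 marker of another class (124 sham cells) their log2 ratios were 0.60 and 0.65. In neutrophil-like cells Clec4e stayed past 2-fold in 7 and Tlr2 in 8 of 10 alternatives, and the number of higher genes was 3 with clusters, with or without the limit of 2500 genes, and with the mean of cells. The median log2 ratio of the 10 genes was 2.34 in monocyte-like cells beside -0.20 for all genes compared, 0.79 beside -0.48 in neutrophil-like cells and 0.88 beside 0.12 in macrophage-like cells.

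Outside the myeloid classes fewer of the genes had enough UMIs. In B-cell-like cells 3 of 6 genes compared were at least 2-fold higher in IR (Tlr2, Cd14 and Clec4e), against 5.44% of 8696 genes, and 1 was lower (Tlr7), against 4.57%. Neutrophil markers summed to 42.6 CPM in sham and 918 CPM in IR in these cells (1 and 0 of 8 at 0), and their part in the higher genes was not tested. In T-cell-like cells, which serve as the reference for free RNA, Cd14 went from 14.1 to 66.9 CPM, beside 11.4 and 67.3 CPM in B-cell-like cells, and Clec4e passed the minimum through its IR UMIs alone. In that class 5.97% of 6529 genes were higher and 3.84% lower, and nothing is read from its count. In fibroblast-like cells 2 of 6 were higher (Cd14 and Clec4e), against 14.6% of 11634 genes, and none lower, against 13.7%. Clec4e, with 16 sham and 30 IR UMIs, passed the minimum there through IR alone. With the fibroblast-like cells over 2500 genes kept, Cd14 was at 54.3 and 78.2 CPM, a log2 ratio of 0.53 that was not past 2-fold, while Clec4e was at 3.79. In mural-like cells 1 of 4 was higher (Cd14), against 7.67% of 8584 genes, and none lower, against 10.4%, and with clusters the Cd14 ratio was 0.06. Neutrophil markers summed to 46.0 and 552 CPM in T-cell-like cells (4 and 0 of 8 at 0), 33.2 and 784 CPM in fibroblast-like cells (1 and 0 at 0) and 46.9 and 628 CPM in mural-like cells (1 and 1 at 0), and their part was not tested. None of 2 genes in NK-cell-like cells and none of 3 in endothelial-like cells passed 2-fold in either direction, where 13.2% and 9.55% of all genes were higher and 8.25% and 13.5% lower. The genes past 2-fold in these classes were thus, Tlr7 apart, among those with the highest levels in myeloid cells.

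The classes were also compared with each other within a library. In sham 6 of the 10 genes were at least 2-fold higher in neutrophil-like than in macrophage-like cells (Tlr2, Tlr13, Myd88, Clec4e, Fpr1 and Fpr2), against 16.2% of all genes, and Cd14 was lower, against 35.4%. Monocyte-like cells exceeded macrophage-like cells in 4 (Tlr13, Myd88, Clec4e and Fpr2), against 12.1%, and were lower in Tlr4 and Cd14, against 17.5%, while neutrophil-like cells exceeded monocyte-like cells in 6, against 11.0%, and were lower in Tlr7, against 39.6%. In IR neutrophil-like cells exceeded macrophage-like cells in 7 (the sham genes without Myd88, and Tlr4 and Cd14), against 13.6%, and were lower in Tlr7, against 55.2%.

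**Figure D2:**
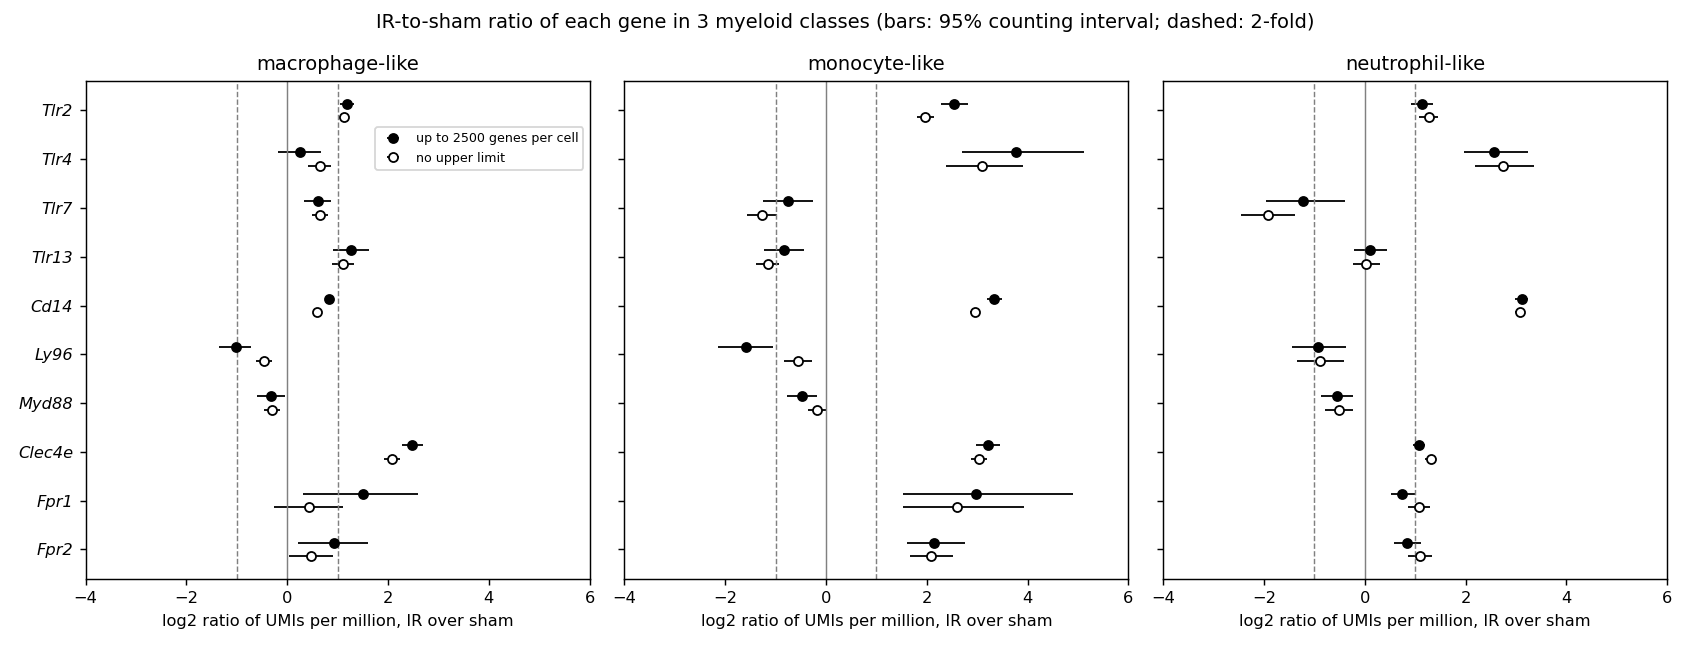
Log2 ratio of the level in IR to that in sham for each gene in the 3 myeloid classes, with 95% counting intervals; filled circles use cells with up to 2500 genes, open circles use all cells, and dashed lines mark 2-fold. Cd14 lay at 3.34 in monocyte-like and 3.11 in neutrophil-like cells but at 0.84 in macrophage-like cells, and Ly96 and Myd88 lay below 0 in every panel with both cell filters.

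Tlr2, Clec4e, Fpr1 and Fpr2 were at least 2-fold higher together in monocyte-like cells, and the sequences upstream of their starts are shown so that this set can be compared at the level of sequence. RefSeq windows on GRCm38.p6 were at hand for 6 of the 10 genes, Tlr2, Clec4e, Myd88, Fpr1, Fpr2 and Tlr13, and not for Tlr4, Tlr7, Cd14 and Ly96. The 250 bases upstream of the start were searched on both strands for a TATA box (TATAAA), an NF-kB motif (GGG, any 5 bases, then CC), a C/EBP motif (TTGCNNAA) and a PU.1 motif (GAGGAA), in these genes and in all 32851 windows. Capitals mark the matches, and bases that lie within the GENCODE gene model are left out, which shortens the Tlr2 stretch. All 4 stretches are intergenic in that annotation.
Tlr2 (chr3:83841768-83841858, minus strand, 91 bases): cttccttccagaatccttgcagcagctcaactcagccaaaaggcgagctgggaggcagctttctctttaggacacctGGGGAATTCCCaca
Clec4e (chr6:123289872-123290121, minus strand, 250 bases): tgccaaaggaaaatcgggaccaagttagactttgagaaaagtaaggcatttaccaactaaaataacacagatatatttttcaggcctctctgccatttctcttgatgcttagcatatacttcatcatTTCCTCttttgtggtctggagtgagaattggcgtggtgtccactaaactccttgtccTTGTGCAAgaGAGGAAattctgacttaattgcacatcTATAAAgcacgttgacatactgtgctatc
Fpr1 (chr17:17883941-17884189, minus strand, 249 bases): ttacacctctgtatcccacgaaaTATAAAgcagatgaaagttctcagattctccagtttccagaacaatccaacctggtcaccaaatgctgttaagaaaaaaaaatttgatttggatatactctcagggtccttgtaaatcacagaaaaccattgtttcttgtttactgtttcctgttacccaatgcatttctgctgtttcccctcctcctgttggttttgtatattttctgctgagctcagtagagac
Fpr2 (chr17:17887574-17887823, plus strand, 250 bases): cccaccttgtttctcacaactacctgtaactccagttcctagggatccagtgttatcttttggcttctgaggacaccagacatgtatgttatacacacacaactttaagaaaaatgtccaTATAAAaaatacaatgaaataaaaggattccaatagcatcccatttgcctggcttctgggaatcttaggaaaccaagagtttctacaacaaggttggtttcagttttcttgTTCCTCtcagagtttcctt
The Tlr2 stretch holds overlapping NF-kB matches 173 to 163 bases upstream of the RefSeq start, and 45.8% of all windows hold this motif. Clec4e has a TATA box 29 to 24 bases upstream, a C/EBP match 66 to 59 bases upstream, found in 9.56% of windows, and PU.1 matches 123 to 118 and 56 to 51 bases upstream, a motif found in 23.3% of windows. TATAAA lies farther from the start in Fpr1 (227 to 222 bases) and Fpr2 (130 to 125 bases), and is in 12.4% of windows. Fpr2 also has a PU.1 match 19 to 14 bases upstream, and matches on the opposite strand stand as their reverse complement in the sequences. The starts of Fpr1 and Fpr2 lie 3885 bases apart on chromosome 17, and the genes are transcribed away from each other. None of the motifs searched was common to the 4 stretches. A match is a run of letters and not evidence that a factor binds there.

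Tlr2 (ENSMUSG00000027995) encodes the surface receptor for lipoproteins, which pairs with TLR1 or TLR6. It was at 125 CPM in sham and 284 CPM in IR in macrophage-like cells, at 102.3 and 595 CPM in monocyte-like cells and at 273 and 597 CPM in neutrophil-like cells. The log2 ratios were 1.19 (95% interval 1.06 to 1.32), 2.54 (2.27 to 2.82) and 1.13 (0.91 to 1.35). In sham the neutrophil-like level was the highest, 2.19-fold that of macrophage-like cells, which stood 1.22-fold above monocyte-like cells. In IR the neutrophil-like and monocyte-like levels could not be separated, with a log2 ratio of 0.01 (-0.08 to 0.10), and they were 2.103-fold and 2.09-fold those of macrophage-like cells. The 6 other classes stayed between 2.13 and 10.9 CPM in sham and between 4.50 and 15.99 CPM in IR. Among the other Toll-like receptors, the partner Tlr1 was at 10.5 CPM in sham and 33.5 CPM in IR in macrophage-like cells, a log2 ratio of 1.68, and the partner Tlr6 was within 2-fold in all 3 classes.

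Tlr4 (ENSMUSG00000039005) encodes the receptor for lipopolysaccharide and several damage signals. It was at 33.1 CPM (22 UMIs) in sham and 195 CPM (1907 UMIs) in IR in neutrophil-like cells, a log2 ratio of 2.56 (1.96 to 3.24). In monocyte-like cells it was at 5.73 CPM, from 7 UMIs, and at 78.5 CPM, a log2 ratio of 3.78 (2.70 to 5.11). In macrophage-like cells the difference was smaller: the level was 20.6 CPM in sham and 24.6 CPM in IR, giving a log2 ratio of 0.26, whose interval (-0.17 to 0.67) included 0. This value moved with the choice of cells, to 0.64 (0.42 to 0.87) without the limit of 2500 genes, to 0.71 with clusters and no limit, and to -0.61 in cells with at most 1 marker of another class. Outside the myeloid classes the gene was measured in fibroblast-like cells, at 20.2 CPM in sham and 23.1 CPM in IR, where the log2 ratio was 0.48 (0.30 to 0.66) without the limit of 2500 genes, and in mural-like cells, at 11.6 and 22.8 CPM. Fibroblast-like cells held 43.4% of all Tlr4 UMIs of the sham library and macrophage-like cells 43.1%, whereas neutrophil-like cells held 85.1% of those in IR. In sham neutrophil-like and macrophage-like cells could not be separated (log2 ratio 0.68, -0.01 to 1.31), while in IR neutrophil-like cells stood 2.48-fold above monocyte-like cells and these 3.19-fold above macrophage-like cells.

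Cd14 (ENSMUSG00000051439) encodes the membrane-anchored co-receptor that delivers ligands to TLR4 and TLR2. In sham it was at 1620 CPM in macrophage-like cells, 763 CPM in neutrophil-like cells and 314 CPM in monocyte-like cells. In IR the order was another, with 6609 CPM in neutrophil-like cells, 3186 CPM in monocyte-like cells and 2895 CPM in macrophage-like cells. The log2 ratio of IR to sham was 3.11 (2.99 to 3.24) in neutrophil-like cells and 3.34 (3.19 to 3.49) in monocyte-like cells, or 8.66-fold and 10.1-fold, against 0.84 (0.80 to 0.88) or 1.79-fold in macrophage-like cells. Neighbouring classes differed beyond counting error in both libraries, although monocyte-like cells were only 1.10-fold above macrophage-like cells in IR. Macrophage-like cells held 90.6% of the 25030 Cd14 UMIs of the sham library, and neutrophil-like cells held 79.9% of the 80853 of the IR library.

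With every cell thinned to 1000 UMIs, so that depth is equal, 31.0% of neutrophil-like cells in sham and 89.3% in IR carried a Cd14 UMI (43.8% and 94.1% before thinning). Monocyte-like cells went from 19.7% to 74.6% and macrophage-like cells from 68.4% to 75.2%, with 50.5% and 88.3%, and 92.6% and 93.2%, before thinning. T-cell-like cells, which should lack the gene and so show the level of free RNA, carried it in 1.02% and 5.75% of thinned cells, and in 4.75% and 26.4% before thinning, at median depths of 3090 and 5594 UMIs. The neutrophil-like median was 1719 UMIs in sham and 3942 in IR, and thinning left out 11 and 110 neutrophil-like, 1 and 12 monocyte-like and 51 and 16 macrophage-like cells with fewer than 1000 UMIs. The shares in the 3 myeloid classes were thus far above that level in both libraries.

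**Figure D3:**
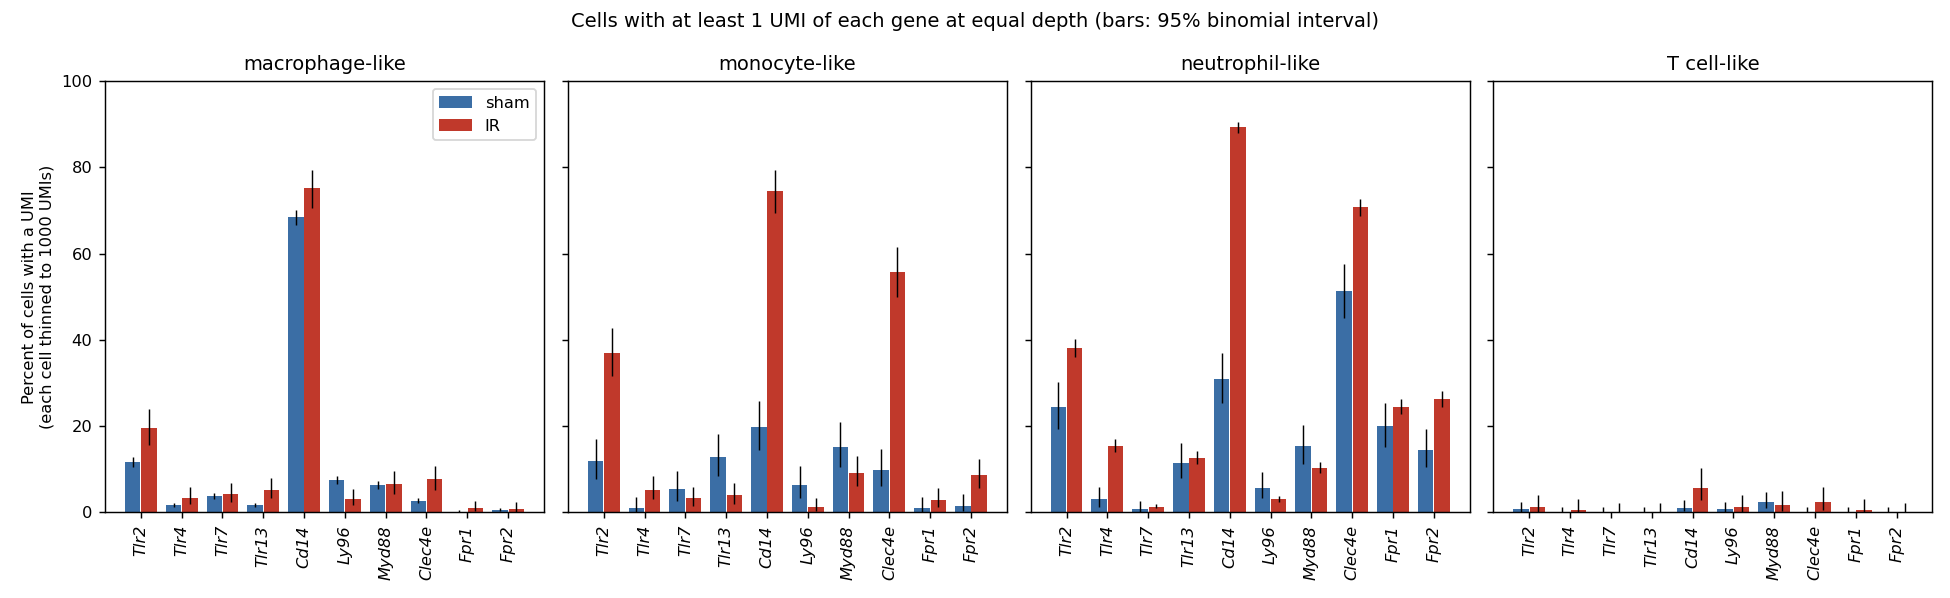
Percent of cells with at least 1 UMI of each gene after thinning every cell to 1000 UMIs, for 3 myeloid classes and T-cell-like cells, with sham in blue, IR in red and 95% binomial intervals. Cd14 was found in 89.3% and Clec4e in 70.7% of neutrophil-like cells in IR, against 5.75% and 2.30% of T-cell-like cells.

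Ly96 (ENSMUSG00000025779) encodes MD-2, without which TLR4 does not bind lipopolysaccharide. Its level was lower in IR in each myeloid class, at 77.5 CPM in sham and 38.2 CPM in IR in macrophage-like cells, 68.0 and 22.7 CPM in monocyte-like cells and 51.1 and 26.8 CPM in neutrophil-like cells. The log2 ratios were -1.02 (-1.35 to -0.71), -1.58 (-2.13 to -1.04) and -0.93 (-1.45 to -0.37). With cells over 2500 genes kept, the ratio was -0.46 in macrophage-like and -0.56 in monocyte-like cells, so that neither remained past 2-fold, while it was -0.89 in neutrophil-like cells. The direction was thus shared by the 3 classes under both cell filters, and the 2-fold calls were not. Relative to the median gene of each class the ratios were -1.14, -1.38 and -0.45. In sham macrophage-like and monocyte-like cells could not be separated, nor could monocyte-like and neutrophil-like cells. Without the limit of 2500 genes the sham levels were 74.9 CPM (70.8 to 79.1) in macrophage-like and 58.3 CPM (48.7 to 69.1) in monocyte-like cells. Fibroblast-like cells were at 23.98 CPM and 15.9 CPM, with an interval that included 0 (-1.61 to 0.26), or -0.44 (-0.63 to -0.25) without the limit of 2500 genes, and held 19.6% of the sham UMIs of this gene.

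Seen as a receptor complex, Tlr4 and Cd14 were higher and Ly96 lower in IR in monocyte-like and neutrophil-like cells. Few cells carried UMIs of all 3 genes at 1000 UMIs: 11 of 2222 neutrophil-like cells in IR (0.495%, interval 0.247 to 0.884), 4 of 2909 macrophage-like cells in sham (0.138%) and none of 303 monocyte-like cells in IR, for which 3 counts, taken as the limit of a count of 0, give a share of up to 0.990% and the exact interval up to 1.21%. Products of the separate shares gave 0.417% for the IR neutrophil-like cells, within that interval. At this depth a cell without a UMI of Tlr4 or Ly96 cannot be told from a cell that does not express it.

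Tlr7 (ENSMUSG00000044583) encodes an endosomal receptor for single-stranded RNA that macrophages, plasmacytoid dendritic cells and B cells use. In macrophage-like cells it was at 39.9 CPM in sham and 60.7 CPM in IR, a log2 ratio of 0.60 (0.33 to 0.87). In monocyte-like cells the ratio was -0.75 (-1.25 to -0.25), from 57.3 to 34.1 CPM, and -1.27 without the limit of 2500 genes. In neutrophil-like cells it was -1.22 (-1.97 to -0.39), from 25.5 CPM (17 UMIs) to 10.9 CPM, but this value rested on how the cells were chosen: it stayed past 2-fold in 4 of 10 alternatives, and with classes from clusters the sham level was 8.02 CPM and the ratio 0.44. In sham monocyte-like cells stood 1.44-fold above macrophage-like cells, which could not be separated from neutrophil-like cells, while in IR macrophage-like cells were 1.78-fold above monocyte-like and 5.55-fold above neutrophil-like cells. The sham neutrophil-like cells also carried more macrophage markers than those of IR, 675 CPM summed over 8 markers (1 of them at 0) against 105 CPM (none at 0), and more B-cell markers, 222 CPM against 41.1 CPM over 6 markers. The part of these in the Tlr7 ratio was not tested.

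B-cell-like cells were the only class outside the myeloid ones in which Tlr7 exceeded 20 UMIs over both libraries. They held 98 Tlr7 UMIs over 942 cells in sham (34.8 CPM) and 11 over 537 cells in IR (5.61 CPM), so the level was 6.20-fold lower in IR and the log2 ratio -2.63 (-3.68 to -1.73). T-cell-like cells were at 7.51 CPM (8 UMIs) in sham and 0.98 CPM (1 UMI) in IR, and with these levels subtracted the B-cell-like levels were 27.3 and 4.62 CPM. The ratio stayed past 2-fold under all 10 alternatives tried, between -4.19 and -2.23. B-cell-like cells lay in different clusters in the libraries, cluster 4 with 1057 sham cells and cluster 7 with 36 sham and 626 IR cells. Summed macrophage markers were 141 CPM in sham and 73.4 CPM in IR in this class (0 and 2 of 8 at 0) and summed B-cell markers 7873 and 5366 CPM, and their part in the difference was not tested.

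Tlr13 (ENSMUSG00000033777) encodes the mouse endosomal receptor for bacterial ribosomal RNA. In sham it was at 129 CPM in neutrophil-like cells and 92.5 CPM in monocyte-like cells, 7.57-fold and 5.42-fold the 17.1 CPM of macrophage-like cells. In IR it was at 139 CPM, 51.8 CPM and 41.2 CPM in the same order, and the last 2 could not be separated (log2 ratio 0.33, -0.08 to 0.75). The log2 ratio of IR to sham was 1.27 (0.91 to 1.62) in macrophage-like cells, -0.84 (-1.23 to -0.44) in monocyte-like cells (-1.16 without the limit of 2500 genes) and 0.10 (-0.21 to 0.43) in neutrophil-like cells. The gene was scarcely detected outside the myeloid classes, at 8 UMIs in sham and 5 in IR over 6 classes.

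Myd88 (ENSMUSG00000032508), the adaptor of these Toll-like receptors other than a branch of TLR4 signalling, was found in every class. Monocyte-like and neutrophil-like cells were both at 146 CPM in sham, 2.21-fold the 65.9 CPM of macrophage-like cells, and fibroblast-like and mural-like cells followed at 53.3 and 51.8 CPM. In IR the levels were 104, 98.8 and 52.6 CPM in the 3 myeloid classes. The log2 ratios of -0.48 (-0.78 to -0.19), -0.56 (-0.86 to -0.24) and -0.33 (-0.61 to -0.05) were all below 0 and none reached 2-fold, and in macrophage-like cells with at most 1 marker of another class the sign turned, at 0.06. Relative to the median gene of the class the neutrophil-like ratio was -0.08. Its gene model overlaps that of Slc22a14 on the same strand, so reads from the shared stretch are uncertain.

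Clec4e (ENSMUSG00000030142), which encodes Mincle, was at 903 CPM in neutrophil-like cells, 129 CPM in monocyte-like cells and 27.4 CPM in macrophage-like cells in sham. In IR it was at 1905, 1188 and 153 CPM. The log2 ratio was 3.21 (2.97 to 3.45) in monocyte-like cells, 2.48 (2.27 to 2.69) in macrophage-like cells and 1.08 (0.96 to 1.20) in neutrophil-like cells, which had the highest level in sham. The distance between neutrophil-like and monocyte-like cells was 7.02-fold in sham and 1.60-fold in IR. A Clec4e UMI was found in 9.85% of thinned monocyte-like cells in sham and 55.8% in IR (32.4% and 82.9% before thinning), and in 51.3% and 70.7% of neutrophil-like cells (69.9% and 91.9%). In macrophage-like cells the shares were 2.65% and 7.65% (8.51% and 28.9%). Among T-cell-like cells it was found in 0 of 295 in sham (up to 1.02% with 3 counts as the limit, 1.24% by the exact interval), and in 2.30% in IR (13.8% before thinning).

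The 6 other classes were at 0 to 6.21 CPM of Clec4e in sham and 27.5 to 59.7 CPM in IR, and at 11.4 to 77.1 CPM and 59.4 to 106 CPM of Cd14. T-cell-like cells went from 0 to 28 Clec4e UMIs, at least 9.77-fold against a floor of 3 UMIs per library, and fibroblast-like cells from 16 UMIs (1.12 CPM) to 30 UMIs (43.3 CPM), with 89.5% of the fibroblast-like IR cells removed by the upper limit on genes. With the T-cell-like level subtracted, the log2 ratio of Clec4e was 2.20 in macrophage-like, 3.17 in monocyte-like and 1.06 in neutrophil-like cells, 3.82 in fibroblast-like cells in place of 5.28, and 0.35 in B-cell-like cells in place of 3.31.

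Fpr1 (ENSMUSG00000045551) and Fpr2 (ENSMUSG00000052270), the receptors for formylated peptides, followed neutrophil-like cells most closely. Fpr1 was at 234 CPM in sham and 393 CPM in IR in these cells, and Fpr2 at 188 and 336 CPM. In sham the Fpr1 level was 143-fold and the Fpr2 level 33.7-fold that of macrophage-like cells, and in IR 84.2-fold and 31.7-fold. Neutrophil-like cells held 76.1% of the Fpr1 UMIs of the sham library and 96.1% of those of the IR library, and 44.5% and 89.2% of those of Fpr2. The log2 ratios in neutrophil-like cells were 0.75 (0.51 to 0.99) and 0.84 (0.58 to 1.11). Without the upper limit on genes both passed 2-fold, at 1.07 and 1.09. The sham levels were then lower, at 185 and 156 CPM, from 292 cells in place of 272. The IR levels were then 389 and 331 CPM.

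In monocyte-like cells Fpr2 was at 24.6 CPM (30 UMIs) in sham and 109 CPM (221 UMIs) in IR, a log2 ratio of 2.15 (1.60 to 2.75). Fpr1 was at 3.27 CPM, from 4 UMIs, and 25.7 CPM, from 52 UMIs, a log2 ratio of 2.97 (1.53 to 4.90). Neutrophil markers summed to 889 CPM in monocyte-like cells in sham and 1431 CPM in IR (1 and 0 of 8 at 0), and their part in the formyl peptide receptor ratios was not tested. In macrophage-like cells Fpr1 rested on 23 and 11 UMIs, and its log2 ratio of 1.51 (0.32 to 2.60) became 0.42 without the upper limit on genes. The 6 other classes held 2 UMIs of each receptor in sham and 13 and 12 in IR. Fpr2 overlaps the gene model of its relative Fpr3 on the same strand, and reads that match several relatives are not counted by this kind of pipeline, so levels of this family may be low estimates.

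**Figure D4:**
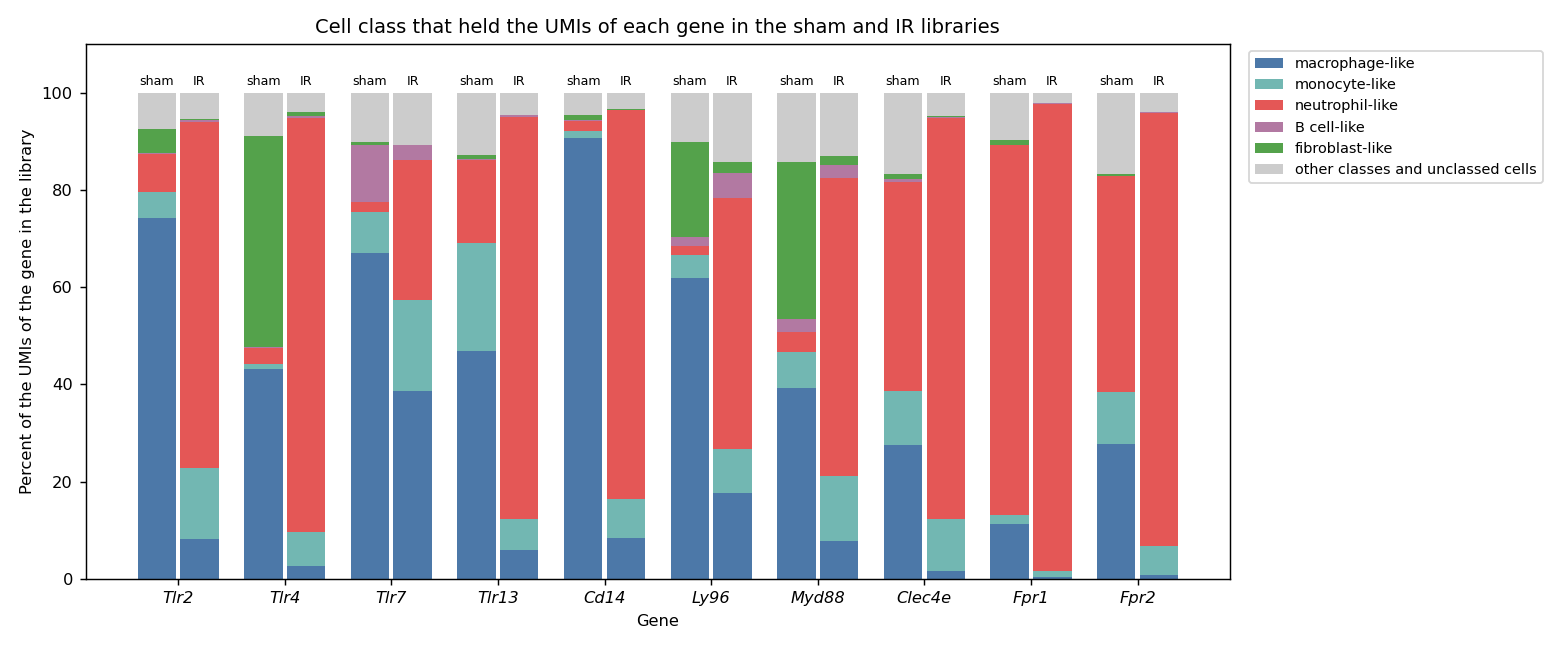
Percent of the UMIs of each gene in the sham (left bar) and IR (right bar) library that lay in each cell class, with other classes and unclassed cells in grey. Macrophage-like cells held 74.3% of Tlr2 and 90.6% of Cd14 in sham, and neutrophil-like cells 71.2% and 79.9% in IR.

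The share of a gene's UMIs held by a class depends on how many cells of the class were captured as well as on their level. Neutrophil-like cells were 3.07% of classed cells in sham and 55.6% in IR, where they held 9777786 of the 21441943 UMIs kept. In IR macrophage-like cells held 38.6% of Tlr7 and neutrophil-like cells 28.9%, while neutrophil-like cells held the largest share of the other genes. How often they are the largest holder over all genes was not computed, so nothing is read from this. Over all cells kept, Cd14 went from 616 to 3771 CPM, Clec4e from 34.5 to 1052 CPM and Tlr4 from 16.5 to 105 CPM, each a larger ratio than in macrophage-like cells, and Ly96 from 43.2 to 23.7 CPM.

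Several of the genes met in the same neutrophil-like cells. UMIs of at least 3 of the 10 were found in 62.2% of 2222 thinned neutrophil-like cells in IR and 25.3% of 261 in sham. In monocyte-like cells the shares were 34.0% and 2.46%, in macrophage-like cells 7.65% and 3.23%, and in T-cell-like cells 0 of 174 and 0 of 295. Shares of at least 3 genes depend on the levels of the single genes, and no expected share was computed for them. Tlr2 and Clec4e were found together in 28.0% of IR neutrophil-like cells, near the 27.0% that the product of their separate shares gives, and Fpr1 and Fpr2 in 7.83%, against 6.41%.

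The difference between IR and sham was also followed within states of a class set by 4 markers each, of which a cell had to show at least 2. In neutrophil-like cells of the Retnlg/Mmp8 state (210 sham and 1026 IR cells) Cd14 was at 838 and 5024 CPM, Tlr4 at 31.2 and 149 CPM and Clec4e at 959 and 1676 CPM. These are log2 ratios of 2.58, 2.25 and 0.81. The state does not make the cells of the libraries alike, since Retnlg is also a marker of the class. Cluster 15 of the neutrophil clusters held 174 sham and 8 IR cells, and cluster 2 held 1 and 1416. The part of such differences between cells in these ratios was not tested. The Cxcl3/Spp1 state held 12 sham and 723 IR cells, and in IR its levels of Cd14, Tlr4 and Clec4e were 1.59-fold, 1.60-fold and 1.29-fold those of the Retnlg/Mmp8 state, with 8012, 238 and 2171 CPM. Myd88 was 1.72-fold lower in the Cxcl3/Spp1 state, at 71.2 against 123 CPM, and Fpr2 could not be separated between the states (log2 ratio -0.09, -0.22 to 0.03). In monocyte-like cells of the Ly6c2 state (201 and 178 cells) Cd14 was at 299 and 3123 CPM, Clec4e at 116 and 1199 CPM and Tlr2 at 96.3 and 539 CPM. All markers of this state are also markers of the class, and it held 98.5% of the class in sham and 56.5% in IR. Its values therefore largely restate those of the class. In macrophage-like cells of the MHCII state (2346 and 292 cells) Clec4e was at 27.2 and 158 CPM and Tlr2 at 128 and 303 CPM. This state made up 79.3% of the class in sham and 73.9% in IR, so values close to those of the class follow from its size. In sham, macrophage-like cells of the Lyve1 state (307 cells) stood apart from those of the MHCII state by higher Ly96, 115 against 69.9 CPM, and Tlr4, 34.0 against 17.6 CPM. They also had lower Cd14, 1210 against 1709 CPM, and Tlr2, 90.7 against 128 CPM. The intervals did not overlap for any of these genes.

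**Figure D5:**
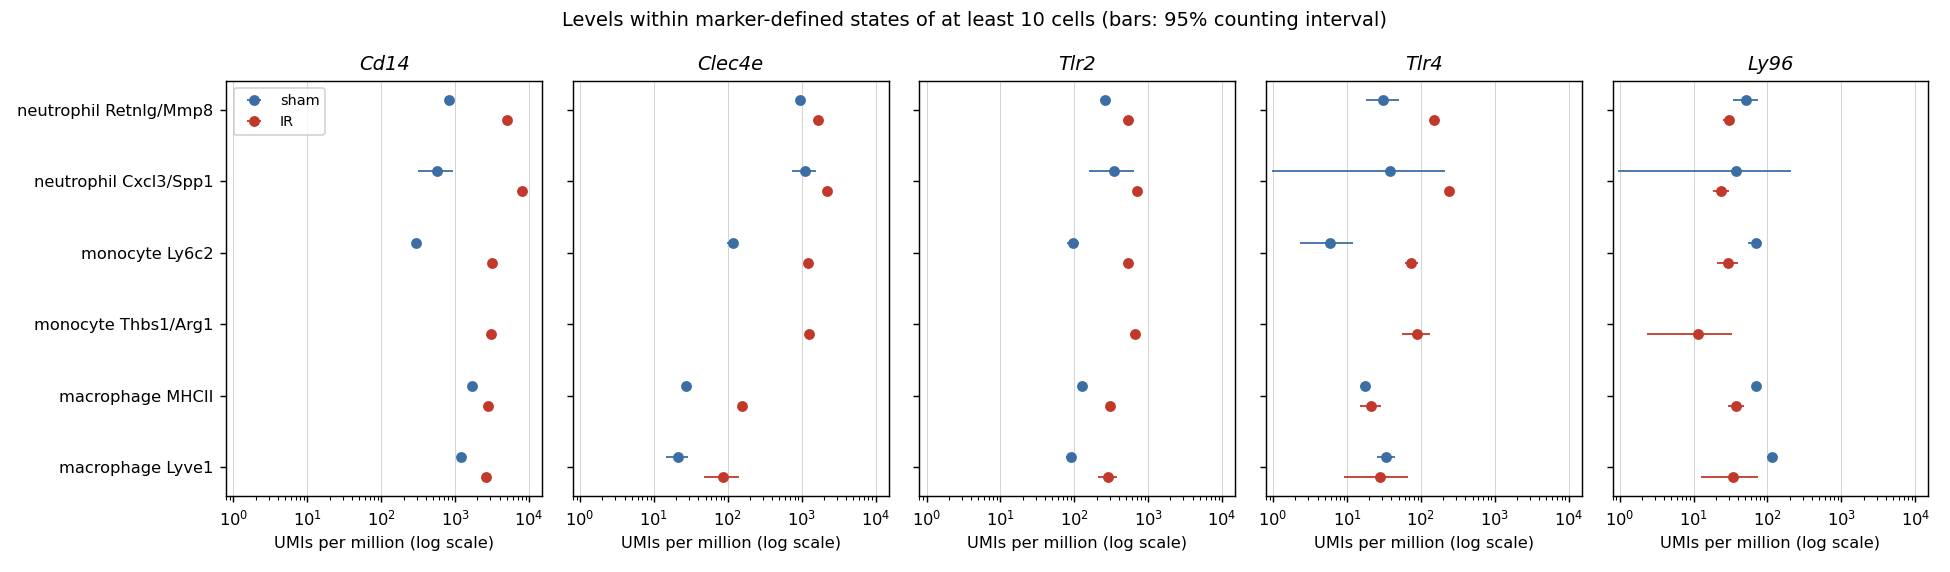
Levels of 5 genes (CPM, log axis) within marker-defined states of neutrophil-like, monocyte-like and macrophage-like cells, with sham in blue, IR in red and 95% counting intervals; the Thbs1/Arg1 state had no sham cells. Cd14 and Tlr4 were higher in IR within the Retnlg/Mmp8 and Ly6c2 states, and Ly96 was lower in IR within the MHCII and Ly6c2 states. The Ly6c2 and MHCII states held most cells of their classes, so their values largely restate those of the classes.

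Other genes of these pathways were taken from 7 lists of 64 genes, of which 63 were found. In macrophage-like cells 15 of 56 compared were at least 2-fold higher and 4 lower in IR, in monocyte-like cells 14 of 52 and 8, and in neutrophil-like cells 12 of 53 and 10. Over all genes compared the shares higher and lower were 10.0% and 7.85% in macrophage-like, 12.8% and 19.8% in monocyte-like and 9.10% and 28.9% in neutrophil-like cells, so the 8 and 10 lower genes lay below the shares over all genes. The C-type lectin list had 3 of 7 higher and none lower in each of the 3 classes, against these shares, and the higher genes were Clec4d, the partner of Mincle, Clec4n, which encodes Dectin-2, and Malt1, a protease of the pathway downstream of Syk. Clec4d was at 32.7 CPM in sham and 697 CPM in IR in monocyte-like cells, 48.6 and 275 CPM in macrophage-like cells and 1023 and 2842 CPM in neutrophil-like cells. The shared signalling genes Fcer1g, Syk, Card9 and Bcl10 were within 2-fold in all 3. The median log2 ratio of the list was -0.23, 0.02 and 0.29 in macrophage-like, monocyte-like and neutrophil-like cells, beside 0.12, -0.20 and -0.48 over all genes.

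Among other danger receptors 5 of 8 were higher and 1 lower in monocyte-like cells, against 12.8% and 19.8% of all genes. Nlrp3, the sensor of an inflammasome, was at 47.5 and 569 CPM in monocyte-like cells, 391 and 1480 CPM in neutrophil-like cells and 127 and 306 CPM in macrophage-like cells, and C5ar1, the receptor for complement C5a, at 33.6 and 495 CPM in monocyte-like cells. In the other 2 classes this list had 3 of 7 higher and none lower (macrophage-like, against 10.0% and 7.85%), and 1 of 8 higher and 2 lower (neutrophil-like, against 9.10% and 28.9%). The list of brakes on Toll-like receptor signalling had 3 of 7 higher and 1 lower in monocyte-like cells (12.8% and 19.8% of all genes) and in neutrophil-like cells (9.10% and 28.9%), and 1 of 7 higher in macrophage-like cells (10.0%). Nfkbia and Tnfaip3, feedback inhibitors of NF-kB, were at 822 and 4559 CPM and at 85.1 and 517 CPM in monocyte-like cells, and Socs1, an inhibitor of cytokine signalling, was the lower gene in both classes. In the same order of classes the median was 0.94, 1.66 and 0.27 for the danger receptors and 0.37, 0.98 and 0.82 for the brakes.

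The list of chaperones and co-receptors had more lower than higher genes in monocyte-like and neutrophil-like cells, with 5 of 8 lower and 1 higher in monocyte-like cells, against 19.8% and 12.8% of all genes, 5 of 7 lower in neutrophil-like cells, against 28.9%, and 2 of 7 lower and 2 higher in macrophage-like cells, against 7.85% and 10.0%. Unc93b1, which carries endosomal Toll-like receptors such as TLR7 to endosomes, was at 495 and 230 CPM in macrophage-like cells, 465 and 143 CPM in monocyte-like cells and 231 and 54.5 CPM in neutrophil-like cells. Ly86, the MD-1 partner of Cd180 and a relative of Ly96, was at 621 and 121 CPM in monocyte-like cells and 61.6 and 5.11 CPM in neutrophil-like cells, where macrophage markers were also lower in IR. Cd36, a co-receptor of TLR2, was the opposite in macrophage-like cells, at 126 and 755 CPM. The medians of this list were -0.56, -1.53 and -2.09, those of the adaptors and kinases 0.39, -0.02 and -0.20 and those of the other Toll-like receptors 0.14, 0.62 and 0.59. Against the same shares, of the adaptors and kinases (13, 12 and 10 compared in macrophage-like, monocyte-like and neutrophil-like cells) Chuk and Ikbkg were higher in macrophage-like cells, Ikbkg was lower in monocyte-like cells, and Irak2 (48.1 and 137 CPM) and Traf6 (6.01 and 50.4 CPM, from 4 sham UMIs) were higher in neutrophil-like cells. The other Toll-like receptors gave 1 of 7 higher and 2 lower in macrophage-like cells (Tlr1 above, Tlr3 and Tlr12), none of 3 in monocyte-like cells and 1 of 4 in neutrophil-like cells, where Tlr8 rested on 1 sham UMI. The median over the list of danger signals was 0.33, 0.59 and -0.39 in macrophage-like, monocyte-like and neutrophil-like cells, with 3 of 8, 2 of 7 and 2 of 10 higher, against 10.0%, 12.8% and 9.10% of all genes, Il1a among them in each class, and with none, none and 2 lower, against 7.85%, 19.8% and 28.9%. The 2 lower genes in neutrophil-like cells were Camp, at 394 CPM (262 UMIs) in sham and 1.53 CPM (15 UMIs) in IR, and Sap130. The Sap130 ratio rested on 4 sham UMIs. Il1a had 0 sham UMIs in monocyte-like and 2 in neutrophil-like cells, and Il33, also higher in neutrophil-like cells, had 1. These higher calls passed the minimum through IR alone. S100a8 and S100a9 in macrophage-like cells (10.1 and 220 CPM, 21.8 and 382 CPM) are markers of the neutrophil-like class, whose 8 markers summed to 63.0 CPM in sham and 670 CPM in IR in macrophage-like cells (1 and 0 of 8 at 0).

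The genes whose pattern was most like each receptor over the 18 combinations of class and library were found by Pearson correlation of log2(CPM + 10), a description over points that share libraries. Cd14 was nearest to Tnf (0.97), C5ar1 and Clec4n, and Clec4e to Il1rn (0.97), Osm and Clec4d. Fpr1 was nearest to Stfa2l1 (0.98), Scrg1 and Dhrs9, and Fpr2 to Dgat2 (0.98), Rhov and Mmp8. Tlr2 was nearest to Pla2g7 (0.98), Bst1 and Csf2rb, Tlr13 to Igsf6 (0.98), Pilrb1 and C130050O18Rik, and Tlr4 to Gadd45b (0.97), Cpeb2 and Tiparp. Tlr7 was nearest to Cybb (0.96), Evi2a and Ctss. Ly96 and Myd88 had lower values, to Gpr137b (0.94), Hfe and Grn, and to Rab31 (0.90), Ifi204 and Nadk. Within the 10 genes the highest values were those of Tlr2 with Cd14 (0.96) and of Fpr1 with Fpr2 (0.94).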

How the data were processed

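Single cells of digested mouse left ventricle were captured with the 10x Chromium 3′ v2 chemistry. The deposited matrices hold UMI counts, which the authors made with Cell Ranger (version 3.1.0 in the file headers) against mm10 and did not normalize. Each matrix pools the 4 samples of a condition, so no test between conditions was possible. Here cells were filtered as the study states (200 to 2500 genes per cell, a mitochondrial share of up to 30%, and genes seen in 5 or more cells), and classes were set from 104 markers for 13 cell types, of which 101 were found and 9 types had at least 50 cells in both libraries. Doublets were not removed beyond these limits. Cells kept held 40607011 sham and 21441943 IR UMIs. Levels have exact Poisson intervals and ratios exact conditional binomial intervals, tested on simulated data. A gene was compared with at least 20 UMIs over both libraries and called at 2-fold, and a count of 0 was set to 3 UMIs. Genes named are the 10 receptors and adaptors, up to 4 genes per pathway list and class with the largest ratios past 2-fold, and the 3 nearest genes of each receptor, while within-2-fold genes were chosen after their values were seen. The genes and lists were chosen with earlier results of these data known. Clustering (30 neighbors, 30 components, 2000 variable genes without the receptors, resolution 0.8) used leidenalg 0.10.2, igraph 0.11.9 and scikit-learn 1.9.0 with Python 3.11.15. Alternatives are given in the closing section. Clec7a, Ighm, Ighd and Trbc2 were not analysed here.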

Additional observations from a re-analysis of the deposited data

Results flagged for a closer look

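For 2 endosomal receptors the IR-to-sham ratio lay above 0 in one class and below 0 in another, with intervals that excluded 0 on both sides, and the differences themselves were not tested. Tlr7 was higher in IR in macrophage-like cells (log2 ratio 0.60) and lower in monocyte-like (-0.75), neutrophil-like (-1.22) and B-cell-like cells (-2.63), so the ratios differed by 1.35, 1.83 and 3.24 on the log2 scale. The neutrophil-like value changed sign with classes from clusters. Tlr13 was higher in macrophage-like cells (1.27) and lower in monocyte-like cells (-0.84), a difference of 2.11.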

How the results depend on the processing

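No paired analysis was possible because the matrices carry no map from cell to sample, so replicates could be neither blocked nor left out. Of 516 member ratios recomputed under 10 alternatives, 415 lay within the counting interval of the reported value, 99 lay outside it and 2 reported as past 2-fold changed sign. Both of these were Tlr7 in neutrophil-like cells, at 0.44 with classes from clusters and 0.57 with clusters and no upper limit on genes. The cause of these shifts was not tested. The single lower gene (Ly96) of macrophage-like cells became 0 without the upper limit, with CPM that leave out mitochondrial, ribosomal and hemoglobin genes, and with clusters without the limit. The lower genes of monocyte-like cells became 2 without the upper limit, where Tlr7 (-1.27) and Tlr13 (-1.16) took the place of Ly96 (-0.56), 2 with at most 1 marker of another class and with the mean of cells (Ly96 and Tlr7), and 0 with clusters. In neutrophil-like cells the higher genes became 2 (Tlr4 and Cd14) with at most 1 marker of another class, where 124 sham cells remained, the lower genes became 0 relative to the median gene, and with clusters the lower gene was Ly96 (-1.15) in place of Tlr7. Clusters without the limit, the median gene and the subtraction of T-cell-like levels were added after seeing the data. Cd14, Clec4e, Tlr2 and Tlr4 stayed at least 2-fold higher in monocyte-like cells under all alternatives, and Cd14 and Tlr4 in neutrophil-like cells. Sham monocyte-like Tlr4 and Fpr1, with 7 and 4 UMIs, are limited by depth.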
